A study of Mus musculus with 12 samples.

Results

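The immediate early response genes described here are 10 genes taken by name from the 45706 genes of the expression table: the transcription factor genes *Fos*, *Fosb*, *Fosl1*, *Fosl2*, *Jun*, *Junb* and *Egr1*, the nuclear regulator *Ier2*, and the feedback genes *Zfp36* and *Dusp1*. The set was selected on the low TPM of *Fos* and *Zfp36* in hypoxic against normoxic unsorted cells, so those values are given as a description. All 10 were detected in each of the 12 libraries and passed the filter on low values, a mean of at least 0.1 TPM (transcripts per 1000000, corrected for transcript length) over the libraries, as did 18909 genes in all.

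The cells were BN1, a murine hepatoblastoma line from an FVB/N liver tumor driven by mutant β-catenin and mutant NRF2 in which *Cdkn2a* had been targeted with Crispr in vivo. All 4 groups therefore shared these drivers and the Cdkn2a KO genotype given in the labels, and all carried the same stable Tie2-EGFP reporter, EGFP under the promoter of the endothelial receptor gene *Tie2/Tek*, in pooled drug-selected clones. The unsorted population was grown either at 21% oxygen (UN) or for 2 days at 1% oxygen (UH). Cells with the highest EGFP after such a hypoxic period were collected by flow sorting and grown at 21% oxygen for roughly 10 days (SN), and part of them then spent another 2 days at 1% oxygen (SH). Each group had 3 libraries. In the SN and SH groups the sort and the earlier exposure to hypoxia cannot be told apart. The study calls the 3 libraries of a group independent replicas but does not say whether they came from separate cultures. The p-values measure only the spread between the libraries.

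Immediate early genes are transcribed within minutes of a growth signal or stress without new protein synthesis, mainly through ERK and other MAP kinases acting on serum response factor with its ternary complex partners and on CREB. FOS and JUN proteins pair to form AP-1, which binds a short DNA element, and FOS family members differ in how strongly they activate it and in how long they persist. Most of these transcripts are short-lived, since ZFP36 binds AU-rich elements in mRNA and brings about its decay, while DUSP1 removes the phosphates that activate MAP kinases. In liver, the same genes are known for their rapid induction after partial hepatectomy.

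Promoter sequences are shown for the 2 genes whose level in UH cells chose the set, *Fos* and *Zfp36*, and for *Dusp1*, a member that moved the other way in the same cells. Of the 10 genes, 7 were matched in the RefSeq promoter table (GRCm38.p6), and *Egr1*, *Fosl1* and *Ier2* are named only. Each line gives the 250 bases before the annotated start, 5′ to 3′ on the strand of the gene. Capitals in *Fos* mark 2 copies of TGACG, part of the cAMP response element bound by CREB and ATF proteins, and 1 TATAAA. In *Zfp36* they mark 1 CArG box, the element bound by serum response factor, which is CC, 6 bases of A or T, and GG. In *Dusp1* they mark 3 matches to TGACG, of which 2 overlap on opposite strands, and 2 overlapping matches to ACGTG, the core bound by hypoxia-inducible factors.
Fos: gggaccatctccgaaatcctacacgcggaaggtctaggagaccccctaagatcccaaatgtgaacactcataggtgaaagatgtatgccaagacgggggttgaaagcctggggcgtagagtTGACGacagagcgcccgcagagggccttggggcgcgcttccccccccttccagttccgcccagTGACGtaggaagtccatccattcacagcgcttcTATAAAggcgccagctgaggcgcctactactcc
Zfp36: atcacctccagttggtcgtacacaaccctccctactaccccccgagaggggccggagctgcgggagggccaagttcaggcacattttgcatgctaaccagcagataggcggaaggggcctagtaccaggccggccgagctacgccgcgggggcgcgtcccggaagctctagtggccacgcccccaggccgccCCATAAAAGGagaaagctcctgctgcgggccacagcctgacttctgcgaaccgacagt
Dusp1: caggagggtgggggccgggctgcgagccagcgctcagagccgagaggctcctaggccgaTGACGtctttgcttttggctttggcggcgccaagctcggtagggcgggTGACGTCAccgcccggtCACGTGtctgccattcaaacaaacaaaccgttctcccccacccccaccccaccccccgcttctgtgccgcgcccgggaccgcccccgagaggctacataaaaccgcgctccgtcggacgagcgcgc

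The *Fos* window lies at chr12:85473640-85473889 on the plus strand, the *Zfp36* window at chr7:28379229-28379478 and the *Dusp1* window at chr17:26508473-26508722, both on the minus strand. In the GENCODE M21 annotation the *Zfp36* and *Dusp1* genes extend farther upstream than the RefSeq starts, so these 2 windows lie within the annotated genes. Windows from 250 bases before to 50 after the start were searched on both strands. A CArG box was found in 1.63% of the 32851 promoters in the table, TGACG in 20.8%, ACGTG in 19.6% and TATAAA in 13.6%. *Fosb* and *Junb* each had 1 match to TGACG, and the AP-1 site (TGAGTCA or TGACTCA), present in 5.2% of promoters, was in none of the 7 matched windows. A match is a run of letters in a window and was not tested for binding. Bases farther upstream were not searched, so a window without a match, such as that of *Fos* for the CArG box, does not show that the gene lacks the element.

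Some libraries stood apart. SN3 was the highest SN library for 8 of the 10 genes, and SH3 was the highest SH library for 5 and the lowest for the other 5. The summed level of 9 fibroblast or stellate cell markers ran from 1176 to 5160 TPM in UN, highest in UN1, from 4852 to 7134 in UH, from 201 to 211 in SN and from 56.5 to 77.8 in SH, with 8 of the 9 at a mean of at least 1 TPM. The 12 liver and hepatoblast markers summed to between 99.4 and 305 TPM over all libraries, and 3 of them were below 1 TPM in every library. Single genes moved apart beneath this sum. *Dlk1* averaged 58.7 TPM in UN, 79.1 in UH, 0.389 in SN and 1.15 in SH, and *Krt8* 65.5 in UN and 4.78 in SN. *Krt18* was at 93.4 in UN and 126 in SN, and *Afp* at 1.83 and 9.20. Of 8 endothelial markers, 6 were below 1 TPM in every library. The sum of the 8 was at most 0.966 TPM in the unsorted and between 2.36 and 5.43 TPM in the sorted groups. Most of the sorted sum was *Tek*, whose promoter drove the reporter, at a mean of 2.49 TPM in SN and 3.04 TPM in SH. Leukocyte markers (7 genes, 4 below 1 TPM in every library) summed to 5.19 to 9.99 TPM in UN, 21.6 to 22.8 in UH, 9.87 to 14.6 in SN and 59.2 to 62.8 in SH. Most of the hypoxic sums was *Cd68*, at a mean of 13.4 TPM in UH and 53.95 TPM in SH. Mitochondrially encoded transcripts made up 5.18% to 8.38% of TPM in the normoxic and 1.67% to 4.68% in the hypoxic libraries, and 8 heat shock genes summed to 3904 to 5090 TPM in normoxia and 2884 to 3602 TPM in hypoxia. Most of the heat shock sum was *Hspa8*, at means of 2417 TPM in UN, 2093 in UH, 3009 in SN and 2284 in SH. Not all 8 were lower in hypoxia. *Dnajb1* averaged 28.9 TPM in UN, 41.5 in UH, 32.8 in SN and 40.3 in SH. *Hsp90aa1* was higher in UH than in UN but not in SH than in SN. The part of these differences in the results below was not tested. In bulk libraries such as these, fewer cells of a type and less RNA per cell cannot be told apart.

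**Figure D1:**
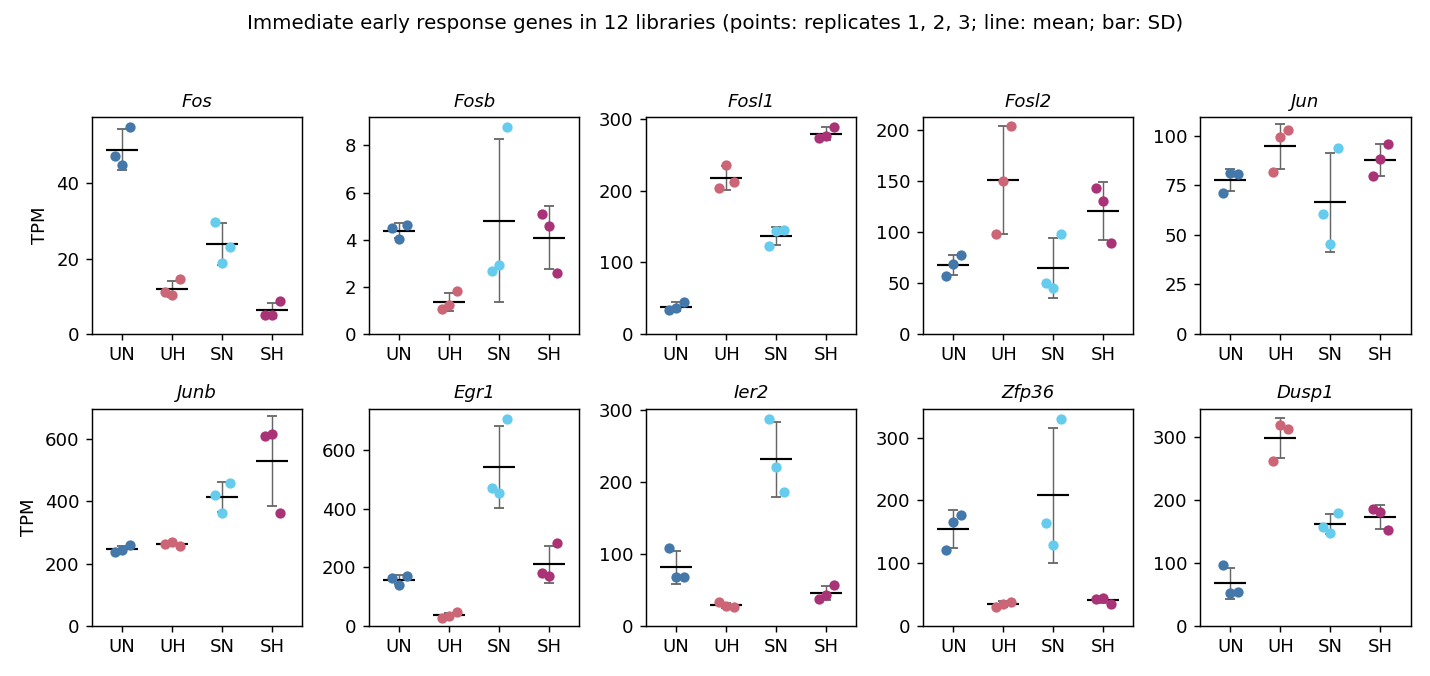
Level of each of the 10 genes in TPM (vertical axis, from 0, a separate scale per gene) in the 3 libraries of each group, with points for replicates 1 to 3 from left to right, a line at the mean and bars of 1 SD. *Fos*, *Ier2* and *Zfp36* have lower points in UH than in UN and in SH than in SN, *Fosl1* has higher ones, and the high SN3 point of *Zfp36* lies at 330 TPM.

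*Fos*, the founding member of its family, was highest in UN cells and lower in hypoxia on either background. Its level was 47.2, 44.8 and 55.0 TPM in the UN libraries and 11, 10.4 and 14.4 TPM in the UH libraries. In sorted cells it was 29.8, 18.8 and 23.0 TPM in SN and 5.04, 5.04 and 8.63 TPM in SH. The libraries of no 2 groups overlapped, in the order SH, UH, SN and UN. The means were 4.10-fold lower in UH than in UN (49.0 ± 5.34 against 11.9 ± 2.18 TPM, SD, n = 3), which is a description, since this contrast chose the set. They were 3.83-fold lower in SH than in SN (23.9 ± 5.54 against 6.24 ± 2.08 TPM, SD, n = 3). In SH against SN, libraries that the choice did not use, *Fos* fell by 1.79 on the log2(TPM + 1) scale (SE 0.21, adjusted p = 5.59e-05, limma). Normoxic sorted cells had 2.05-fold less *Fos* than normoxic unsorted cells, and hypoxic sorted cells 1.92-fold less than hypoxic unsorted cells, with no test run on either difference.

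*Fosl1*, which encodes FRA1, a FOS family protein without a strong activation domain, had the opposite pattern. It was at 33.7, 35.7 and 44.8 TPM in UN and at 203, 236 and 212 TPM in UH, 5.70-fold higher in the means. The SN libraries held 122, 143 and 146 TPM and the SH libraries 273, 276 and 289 TPM. Again the 4 groups did not overlap, now in the order UN, SN, UH and SH. *Fosl1* rose in SH against SN by 1.03 (log2, SE 0.11, adjusted p = 3.47e-05, limma), just past the 2-fold limit, and was at 0.95 without SN1 and at 0.96 with mitochondrial genes left out of the scaling. It was also higher in SN than in UN (log2 difference 1.83, SE 0.11, adjusted p = 4.73e-07, limma), a 3.6-fold difference between normoxic cells. In SH against UH it differed by 0.37 (SE 0.11, adjusted p = 0.0238, limma), below the 2-fold limit.

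*Fosl2*, which encodes FRA2, was at 56.9, 68.4 and 76.8 TPM in UN and at 97.8, 150 and 204 TPM in UH, without overlap. In sorted cells the groups overlapped, at 49.8, 45.1 and 98.3 TPM in SN against 143, 130 and 88.5 TPM in SH. The difference of 0.95 (log2, SE 0.32, adjusted p = 0.0302, limma) was just short of 2-fold, and it was 1.30 without SN3 and 1.16 without SH3, both then called. *Fosb* was the least expressed member. It was at 4.02 to 4.62 TPM in UN and 1.07 to 1.80 in UH, while SN libraries were at 2.66, 2.94 and 8.80 TPM and SH libraries at 5.08, 4.59 and 2.57 TPM. SN3 and SH3 lay apart from the other libraries of their groups and in opposite directions, and the difference between SH and SN was −0.07 (SE 0.34, adjusted p = 0.898, limma), changing sign without either of them. *Fosb* was higher in SH than in UH by 1.08 (log2, SE 0.34, adjusted p = 0.0227, limma), a call that was lost without UH1, UH2, SH1 or SH2 (0.93 to 1.04, adjusted p = 0.0649 to 0.0877), and short of 2-fold under median-of-ratios scaling (0.94) or quantile normalization (0.97).

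**Figure D2:**
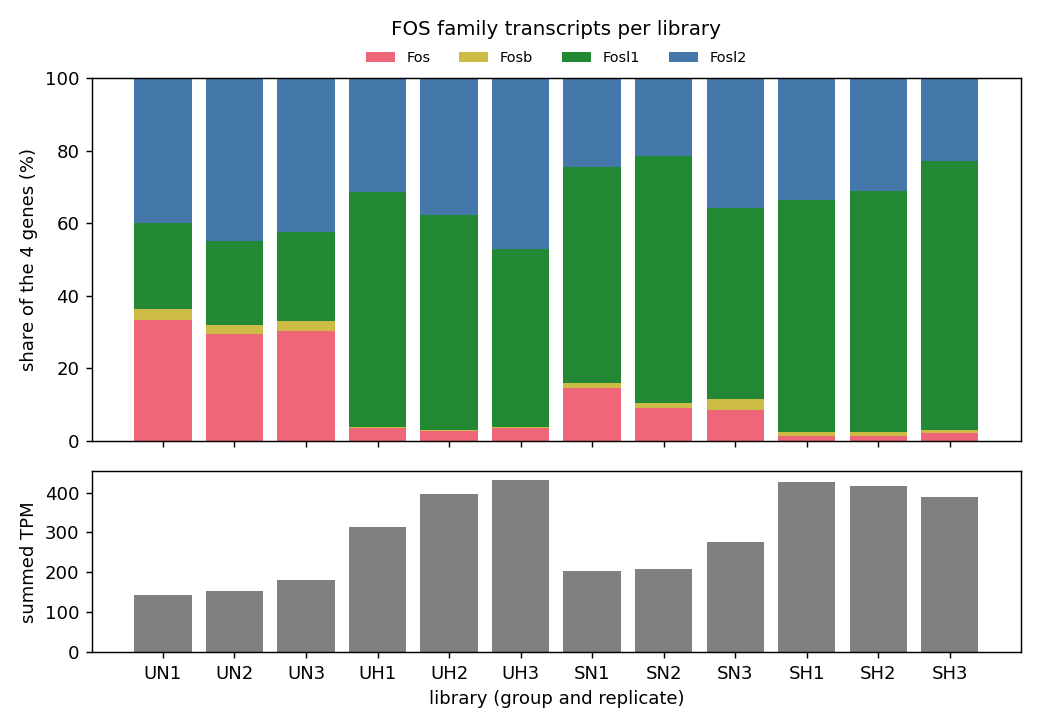
Share of each FOS family gene in the summed TPM of the 4 genes (upper panel, percent, stacked) and that sum in TPM (lower panel, from 0) for each of the 12 libraries. The *Fos* share is between 29.3% and 33.2% in the UN libraries and at most 14.6% in every other library, and *Fosl1* makes up 49.1% or more of the family in every library outside UN.

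Because TPM are corrected for length, the 4 FOS family genes could also be compared as parts of a whole. *Fos* made up 30.9% ± 2.00 (SD, n = 3) of the family's TPM in UN, 3.16% ± 0.47 in UH, 10.6% ± 3.43 in SN and 1.54% ± 0.59 in SH. *Fosl1* held 23.9% in UN, 57.8% in UH, 60.2% in SN and 68.3% in SH. The *Fosl2* share was 42.4%, 38.7%, 27.2% and 29.2% in the same order, and that of *Fosb* was at most 3.19% in any library. The family's sum was larger in hypoxia, at 381 TPM in UH against 159 in UN and at 410 in SH against 230 in SN. The family therefore went from a mixture of *Fosl2*, *Fos* and *Fosl1* in UN to one led by *Fosl1* in the other 3 groups. These shares use values that chose the set and are given without a test.

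JUN proteins are the obligate partners of FOS proteins in AP-1. Of their genes, *Jun* and *Junb* were within 1.5-fold between oxygen levels in the group means. *Jund*, counted below among the AP-1 partners, rose from 62.1 TPM in UN to 150 in UH (log2 difference 1.25, SE 0.10, adjusted p = 2.14e-06, limma). The *Jund* means were 87.2 TPM in SN and 150 in SH, short of 2-fold (log2 difference 0.77, SE 0.10, adjusted p = 0.000118, limma). *Jun* was at 71.1 to 80.9 TPM in UN, 81.8 to 103 in UH, 45.1 to 93.8 in SN and 79.7 to 95.6 in SH. Its highest group mean was 1.43 times the lowest, and in SH against SN, SN against UN and SH against UH it was not called (log2 differences 0.46, −0.28 and −0.10, adjusted p = 0.1, 0.333 and 0.72, limma). *Junb* was higher in sorted cells. The UN and UH libraries held between 238 and 269 TPM and overlapped, whereas SN libraries were at 421, 362 and 458 TPM and SH libraries at 610, 616 and 362 TPM. *Junb* differed by 0.73 in SN against UN (SE 0.17, adjusted p = 0.00687, limma) and by 0.96 in SH against UH (SE 0.17, adjusted p = 0.00103, limma), both short of 2-fold, the second reaching 1.21 without SH3 and 1.05 under quantile normalization. *Junb* made up 76.1% ± 0.94 of the summed TPM of the pair in UN, 73.7% ± 2.48 in UH, 86.5% ± 3.09 in SN and 85.0% ± 5.14 in SH (SD, n = 3).

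*Egr1*, a zinc finger factor induced by ERK signaling, had the widest range of the set. It was at 162, 140 and 171 TPM in UN and at 26.9, 33.2 and 45.3 TPM in UH, 4.50-fold lower in the means. Sorted cells had 472, 455 and 707 TPM in SN and 179, 169 and 283 TPM in SH, so that the highest group mean was 15.5 times the lowest. The SH libraries overlapped with those of UN, while UH was below and SN above both. *Egr1* fell in SH against SN by 1.38 (log2, SE 0.24, adjusted p = 0.000689, limma). It was higher in sorted cells at either oxygen level, by 1.75 in SN against UN (SE 0.24, adjusted p = 0.000174, limma) and by 2.54 in SH against UH (SE 0.24, adjusted p = 7.64e-06, limma). It was 3.45-fold higher in SN than in UN and 5.99-fold higher in SH than in UH, where *Fos* was lower. Without SN3 the log2 difference between SH and SN was −1.17, still called.

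*Ier2*, a short nuclear regulator of the same first wave, was at 108, 67.3 and 67.5 TPM in UN and at 32.3, 27.3 and 25.3 TPM in UH. It was at 288, 221 and 186 TPM in SN and at 36.6, 42.5 and 56.4 TPM in SH. None of the 4 groups overlapped. The 5.12-fold lower mean in SH than in SN was a fall by 2.33 on the log2 scale (SE 0.22, adjusted p = 1.06e-05, limma). *Ier2* was higher in SN than in UN by 1.52 (log2, SE 0.22, adjusted p = 0.00029, limma) and by 1.74 without UN1, the highest UN library. In SH against UH the difference was 0.64 (SE 0.22, adjusted p = 0.0351, limma), below the 2-fold limit.

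*Zfp36*, the mRNA decay factor, overlapped between sorted and unsorted cells at each oxygen level and was lower in hypoxia in both. It was at 120, 166 and 177 TPM in UN and at 29.2, 34.3 and 38.4 TPM in UH, 4.54-fold lower. The SN libraries were at 164, 129 and 330 TPM and the SH libraries at 42.0, 44.0 and 35.2 TPM. SN overlapped with UN and SH with UH, and the SN mean rested on SN3, without which *Zfp36* in SN against UN went from 0.33 to −0.06. In SH against SN it fell by 2.22 on the log2 scale (SE 0.28, adjusted p = 8.12e-05, limma), and the difference was −1.83 without SN3, still called. The 2 responses to hypoxia, −2.14 in unsorted and −2.22 in sorted cells, are given side by side without a test of their difference.

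*Dusp1*, the MAP kinase phosphatase, was higher in UH than in UN, unlike *Egr1*, *Fos*, *Ier2* and *Zfp36*. It was at 96.1, 51.7 and 53.9 TPM in UN and at 262, 320 and 313 TPM in UH, 4.44-fold higher. In sorted cells it was at 158, 148 and 180 TPM in SN and at 186, 181 and 152 TPM in SH, and these groups overlapped. The difference between SH and SN was 0.10 (log2, SE 0.20, adjusted p = 0.748, limma). *Dusp1* was 2.40-fold higher in SN than in UN (log2 difference 1.31, SE 0.20, adjusted p = 0.000442, limma), and 1.59 on the log2 scale without UN1. In SH it was 1.72-fold lower than in UH (log2 difference −0.78, SE 0.20, adjusted p = 0.00864, limma), short of 2-fold.

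**Figure D3:**
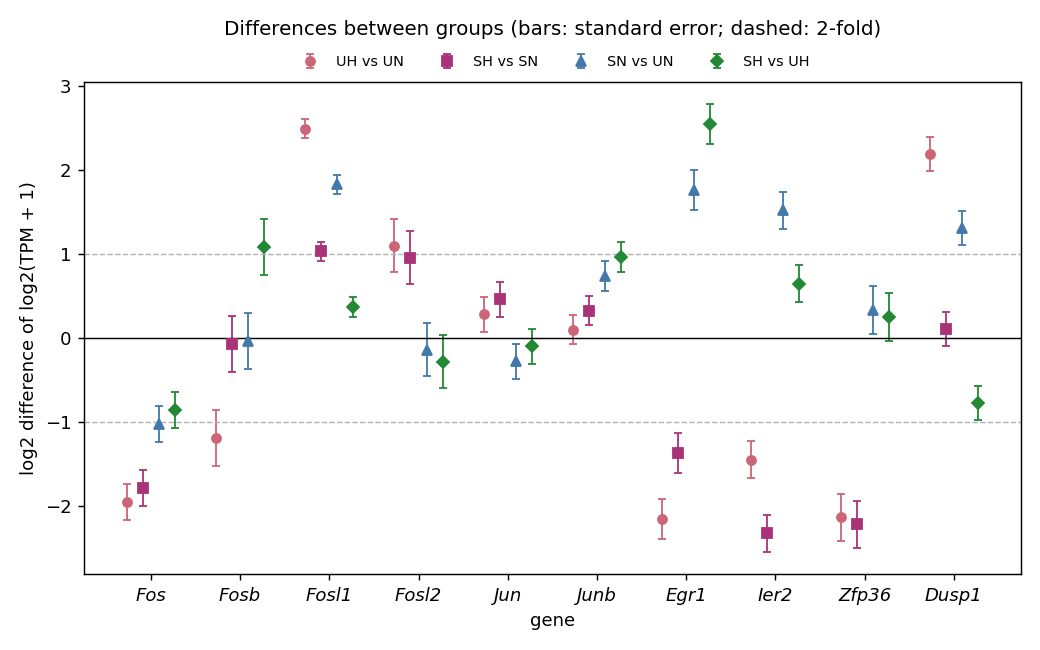
Differences between groups for each gene on the log2(TPM + 1) scale (vertical axis, symbols by comparison, bars of 1 SE from limma, dashed lines at 2-fold). *Fos*, *Egr1*, *Ier2* and *Zfp36* lie below −1 in both hypoxia comparisons, *Dusp1* lies at 2.19 in unsorted and 0.10 in sorted cells, and *Egr1* lies above 1 in both comparisons of sorted with unsorted cells.

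Counted as a set, 5 of the 10 genes were at least 2-fold lower in UH than in UN without overlap (*Fos*, *Fosb*, *Egr1*, *Ier2* and *Zfp36*). By the same rule 3 were higher (*Fosl1*, *Fosl2* and *Dusp1*), or 2 without UN1 or without UH3. *Fosl2* was then short of 2-fold, at a log2 difference of 0.85 without UH3. Median-of-ratios scaling or quantile normalization gave 4 lower and 3 higher. By the same rule 11.7% of all genes tested were lower and 5.31% higher, but nothing is read from this, as the contrast chose the set. In SH against SN, 4 of 10 fell (*Fos*, *Egr1*, *Ier2* and *Zfp36*) and 1 rose (*Fosl1*) at an adjusted p under 0.05 and a fold above 2, where 5% of all genes fell and 7.47% rose. The 4 that fell were called whichever library was left out, while 2 rose under quantile normalization and 0 when mitochondrial genes were left out of the scaling. The median log2 difference of the 10 was 0.01 and that of all genes 0.03. In SN against UN, *Fosl1*, *Egr1*, *Ier2* and *Dusp1* of the 8 genes tested were higher and 0 were lower, against 3.2% and 7.57% of all genes (limma, with 0 of the 8 also lower at an unadjusted p under 0.05). *Fos* and *Zfp36* were not tested there, since their UN and UH levels chose the set. The median was 1.02 against −0.06 for all genes. In SH against UH, *Fosb* and *Egr1* of 8 were higher and 0 were lower, against 7.65% and 5.35% of all genes, with a median of 0.50 against 0.17, and 1 was higher and 1 lower under median-of-ratios scaling. At an unadjusted p under 0.05 in limma, 1 of the 8 was lower, *Dusp1*. Throughout, the share of all genes at that unadjusted cutoff is not given, so counts at it are not read as a result. UN is shared by UH against UN and SN against UN, as is each other group by a pair of comparisons, so these counts are not independent of each other. The summed fibroblast or stellate markers, given above, were lower in both sorted groups than in the unsorted ones. Single markers varied, with *Col1a1* at 428 to 1186 TPM in UN against 5.65 to 7.62 in SN, *Dcn* at 81.2 to 349 against 116 to 126 TPM, and *Des* at 0.909 to 1.18 TPM in UH against 6.06 to 11.3 in SH. Their part in the sorted against unsorted differences was not tested.

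The genes most like *Fos* over the 12 libraries, by Pearson r of log2(TPM + 1) among 13557 genes with a mean of at least 1 TPM, were *Fastkd2* (0.986), *Cops5* (0.984), *Rmnd5b* (0.983), *Ywhaq* (0.983) and *Lap3* (0.982). Those most like *Zfp36* were *Insig1* (0.980), *Ubfd1* (0.977), *Tnip3* (0.972), *Atp6v0a1* (0.969) and *Pilra* (0.967). The members themselves were left out of this ranking, so none of them could appear. None of the genes named was in the lists of related genes used here. The points are libraries of 4 groups, so these values mostly describe the order of the group means. *Insig1*, which restrains cholesterol synthesis, averaged 43.1 TPM in UN, 9.07 in UH, 70.9 in SN and 12 in SH.

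Other genes of the same pathways were counted in 5 lists of 94 genes in all, 91 of them tested. In UH against UN 18 rose and 11 fell, where 5.46% of all genes rose and 11.8% fell. The split was 22 and 8 under median-of-ratios scaling, which moved the median of all genes from −0.19 to 0.00, and 15 and 14 with mitochondrial genes left out of the scaling. In SH against SN 9 rose and 13 fell, where 7.47% and 5% of all genes did. In SN against UN 16 were higher and 5 lower (8 without UN1), beside 3.2% and 7.57% of all genes. The comparison of SH with UH had 10 higher and 8 lower, or 8 and 12 under median-of-ratios scaling, beside 7.65% and 5.35% of all genes. The medians of the 91 were −0.10, −0.20, 0.24 and 0.14 in these 4 comparisons, and those of all genes −0.19, 0.03, −0.06 and 0.17.

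Among 10 AP-1 partners tested, 3 rose and 0 fell in each hypoxia comparison, and 0 were called between sorted and unsorted cells of the same oxygen level (limma). At an unadjusted p under 0.05, 2 were lower in UH than in UN and 1 in SH than in SN, 5 were higher and 1 lower in SN than in UN, and 4 were higher and 3 lower in SH than in UH. *Maff*, a small MAF protein, rose from 25.2 ± 1.83 TPM in UN to 143 ± 4.71 TPM in UH (SD, n = 3). In sorted cells it rose from 47.4 ± 5.49 to 114 ± 17.0 TPM. *Atf7*, a CREB family factor, rose from 39.8 ± 6.03 to 108 ± 10.4 TPM in unsorted and from 63.3 ± 8.66 to 156 ± 18.3 TPM in sorted cells. *Atf3*, a stress-induced repressor of the same family, rose in SH against SN by 2.85 (log2, SE 0.60, adjusted p = 0.00252, limma). Its SN libraries were at 13.6, 8.22 and 49.1 TPM and its SH libraries at 133, 148 and 126 TPM. SN3 was the high library here as well, and the difference was 3.56 without it.

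Of 19 other immediate early regulators tested, 4 rose and 3 fell in UH against UN, and 2 rose and 6 fell in SH against SN. *Egr3*, a paralog of *Egr1*, fell in SH against SN by 2.56 on the log2 scale (17.1 ± 5.92 against 1.97 ± 0.13 TPM, SD, n = 3) and was 2.81 higher in SN than in UN, where it averaged 1.5 TPM. *Id3*, an inhibitor of helix-loop-helix factors and a target of BMP signaling, fell in both, from 199 ± 32.1 to 26.2 ± 2.45 TPM in unsorted and from 114 ± 15.1 to 22.7 ± 11.4 TPM in sorted cells. *Id1* fell in both as well, from 134 to 48.1 TPM and from 219 to 67.9 TPM. *Klf4* rose in both, from 16.6 to 72.8 TPM and from 11.6 to 39.2 TPM, and *Ier3*, a regulator of survival, rose from 234 to 935 TPM in UH. *Klf2* rose in both from a low level, 3.48 to 14.2 TPM in unsorted and 1.26 to 4.87 TPM in sorted cells. In SN against UN 3 regulators were higher and 0 lower (3 lower at an unadjusted p under 0.05, limma). The higher ones included the orphan nuclear receptor gene *Nr4a2* at 10.3 against 2.38 TPM. In SH against UH, where 2 were higher and 2 lower, *Nr4a2* was at 8.74 against 1.54 TPM and *Btg2*, an antiproliferative gene, at 40.5 against 12.7 TPM.

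The 20 genes of the serum response and ERK pathway had the smallest share of calls in both hypoxia comparisons. In UH against UN 1 rose and 1 fell, and in SH against SN 1 rose and 0 fell, although 9 were lower at an unadjusted p under 0.05 (limma). The one that rose in both was *Map2k1*, which encodes the kinase MEK1 upstream of ERK, from 54.6 ± 1.76 to 264 ± 27.2 TPM in unsorted and from 67.8 ± 4.03 to 222 ± 6.42 TPM in sorted cells (SD, n = 3). *Met*, the receptor of hepatocyte growth factor, fell from 53.7 to 22.5 TPM in UH (log2 difference −1.25, adjusted p = 0.000123, limma), and was at −0.904 under median-of-ratios scaling and −0.94 under quantile normalization, short of 2-fold. It was at 56.1 TPM in SH, higher than in UH by 1.30 (SE 0.18, adjusted p = 0.000128, limma). *Rps6ka1*, a kinase activated by ERK, was lower in SN than in UN, at 4.45 against 13.2 TPM.

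Among 22 feedback inhibitors, 5 rose and 1 fell in UH against UN, and 1 rose and 3 fell in SH against SN. *Dusp10*, a phosphatase of p38 and JNK, rose in both, from 30.6 to 80.8 TPM and from 19.5 to 63.8 TPM. *Trib1*, a pseudokinase, fell in both, from 24.2 to 7.55 TPM and from 41.2 to 13.6 TPM. *Dusp4*, a nuclear phosphatase of ERK, went opposite ways, from 12.7 ± 6.23 to 28.9 ± 5.32 TPM in UH and from 52.8 ± 24.6 to 16.2 ± 4.98 TPM in SH (SD, n = 3), and its rise in UH was lost without UN2 or UN3 (adjusted p = 0.0596 and 0.0571, limma). In SN against UN 5 inhibitors were higher, *Dusp4* and the ERK phosphatase gene *Dusp6* (66.8 against 23.9 TPM) among them. In SH against UH *Dusp6* was the 1 that was higher, at 33.4 against 11.6 TPM. The number called lower was 0 in both, with 1 and 4 lower at an unadjusted p under 0.05 (limma).

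The 20 secreted and surface products, several of which are AP-1 or EGR1 targets, had 5 up and 6 down in UH against UN, the largest share of the 5 lists there, and 2 up and 4 down in SH against SN. *Mmp9*, a gelatinase, fell in both, from 28.2 to 2.41 TPM and from 119 to 18.9 TPM. *Cxcl1*, a neutrophil chemokine, also fell in both, from 1531 to 280 TPM in unsorted and from 1621 to 482 TPM in sorted cells. *Ccl2*, a monocyte chemokine, did the same, from 1395 to 358 TPM and from 3191 to 703 TPM. *Hbegf*, a ligand of the EGF receptor, rose in both, from 25.4 to 142 TPM and from 101 to 289 TPM. Between SN and UN, where 8 were higher and 4 lower, *Gdf15* was at 165 against 17.8 TPM and *Mmp9* was 2.10 higher on the log2 scale, while *Mmp3* and *Il6* were at 14.5 against 61.7 and at 8.15 against 29.9 TPM. In SH against UH, with 5 higher and 5 lower, *Ctgf*, a matricellular gene also known as *Ccn2*, was at 58.6 against 1128 TPM and *Mmp3* at 7.66 against 144 TPM. *Gdf15* was at 78.4 against 13.4 TPM in the same comparison.

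**Figure D4:**
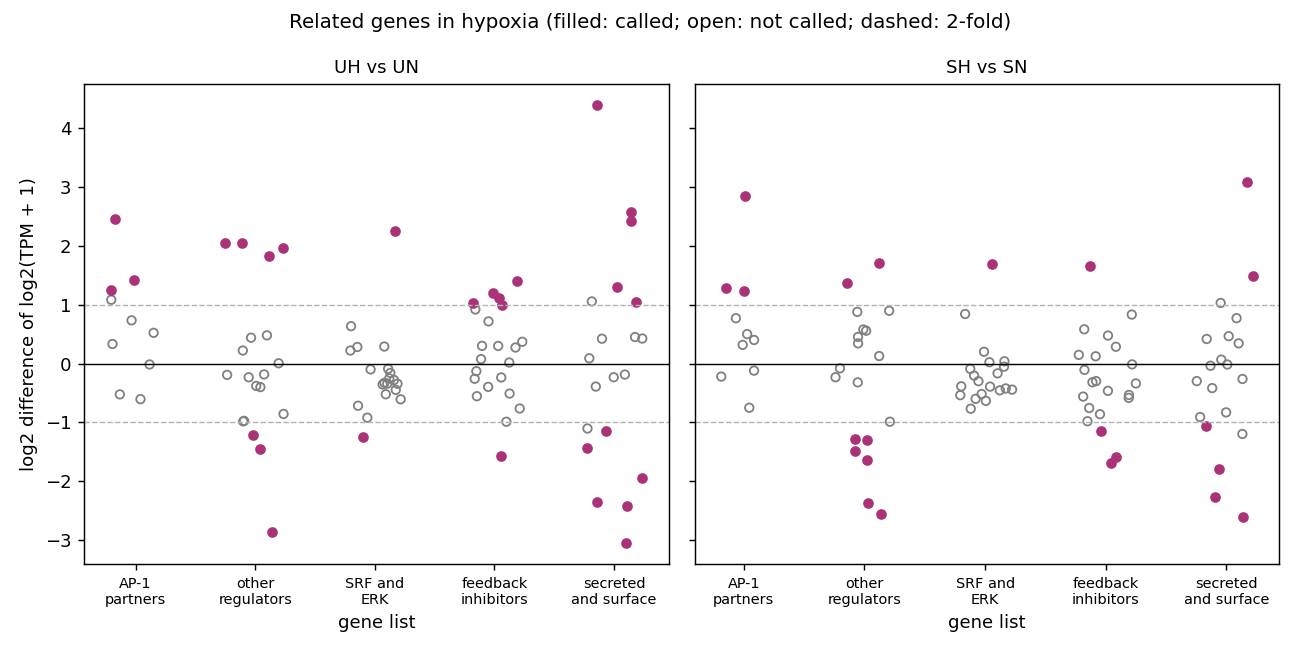
Log2 difference in TPM + 1 (vertical axis) of the 91 related genes tested, by list (horizontal axis), in unsorted (left) and sorted (right) cells, with filled points for genes called by limma and dashed lines at 2-fold. In the left panel 18 filled points lie above 1 and 11 below −1, and in the right panel 9 lie above and 13 below.

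The response to hypoxia differed between sorted and unsorted cells for 10 of the 91 related genes, 1 with a higher and 9 with a lower signed log2 difference in sorted cells, where 8.08% and 2.18% of all genes did so (limma, interaction term). Without UN1 the counts were 7 and 15. The median difference was −0.18 for the 91 and 0.25 for all genes tested. *Egr3*, at −0.38 in unsorted and −2.56 in sorted cells, and *Ctgf* were among the 9. *Ctgf* rose from 189 ± 18 to 1128 ± 78.8 TPM in unsorted cells and was at 70.0 ± 1.75 TPM in SN and 58.6 ± 7.58 TPM in SH (SD, n = 3). This term was not tested for the 10 immediate early response genes, as it contains the contrast that chose them.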

How the data were processed

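RNA of BN1-Tie2-EGFP cells in 12 libraries (4 groups of 3, taken from the labels) was sequenced by the authors on an AVITI instrument from stranded mRNA libraries. Per the submitters' processing notes, reads were processed with nf-core/rnaseq 3.12.0 against mm10; the annotation is not given in the sources used here. The deposited values are TPM per gene and library, scaled by the authors to a sum of 1000000, so depth is unknown and no counting interval is given.

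TPM were transformed as log2(TPM + 1), where folds of low genes are understated. With limma 3.58.1 (R 4.3.3), 4 group means were fitted to all 12 libraries for the 18909 genes averaging at least 0.1 TPM, with empirical Bayes moderation along a trend. Calls required p under 0.05 after Benjamini-Hochberg adjustment over these genes and a log2 difference above 1 or below −1. The study tested counts; a TPM table needs this log-scale test. The code was tested on simulated data.

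The members and lists were chosen with earlier results of these data known. Named genes are the 10 members, the 5 genes most correlated with *Fos* and with *Zfp36*, and, per list and comparison, up to 2 called genes in each direction with the largest differences and no overlap, not all of which are printed; most other genes called in the difference of responses are also named. *Jund* is named as a further JUN gene. Values of 1 listed gene, which counts over its list include, are not reported here. GENCODE M21 (GRCm38) held 98.8% of the identifiers. The replicate numbers were not taken as pairs: residuals of libraries with the same number correlated at between −0.063 and 0.141. Alternatives were an added constant of 0.1, no filter or one at 1 TPM, scaling by median-of-ratios, by quantiles or without mitochondrial genes, a fit of the 2 groups compared, moderation without a trend, a replicate block, and leaving out each library.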

Additional observations from a re-analysis of the deposited data

Results flagged for a closer look

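The hypoxia response of sorted minus that of unsorted cells, tested as an interaction in limma, passed the threshold for 10 related genes outside the set, not all of which are named. On the log2 scale the difference was −2.83 for *Ctgf* (SE 0.15, adjusted p = 1.61e-06), −2.79 for *Dusp4* (SE 0.49, adjusted p = 0.00253), −2.18 for *Egr3* (SE 0.31, adjusted p = 0.000707) and −2.14 for *Mmp3* (SE 0.37, adjusted p = 0.0022). It was −1.60 for *Ier3*, −1.21 for *Maff*, −1.27 for *Nr4a3* and −1.08 for the metalloproteinase inhibitor gene *Timp1*, and 1.55 for *Btg2*. *Egr3*, low in unsorted cells, was 1.60-fold lower in UH than in UN and 8.71-fold lower in SH than in SN in the means. *Nr4a3* was near the floor, at 0.1245 TPM in UN, 3.29 in UH, 0.00283 in SN and 0.480 in SH. Its means rose 26.4-fold in unsorted and 169.6-fold in sorted cells, so its smaller sorted response holds on the log2 scale with an added constant only. Its adjusted p was 0.024 and rose to 0.142 with an added constant of 0.1. Its call was also lost without any 1 of UN2, UN3, UH2, SN1, SN2, SN3 or SH2 (adjusted p = 0.0503 to 0.0565) and without UH3 (−0.96). For *Timp1* the difference was −0.87 under quantile normalization and between −0.996 and −0.961 without UN2, UN3 or UH1, each time short of 2-fold.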

How the results depend on the processing

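Of 1943 recomputed values of the genes and comparisons printed, 1887 kept their direction and their side of the threshold (or moved by less than 1 SD). Counts of genes were taken as kept also when they changed by a small factor. Leaving out a library cannot move a log2 difference between groups it is not part of, so the 1887 overstates how firm the values are. The median of all genes in SH against UH went from 0.17 to 0.03 under median-of-ratios scaling. Under that scaling 1 member was higher and 1 lower in SH against UH, with *Dusp1* at −1.01 now called and *Fosb* at 0.94 lost, and 19 related genes had a lower signed log2 response to hypoxia in sorted than in unsorted cells. In SH against SN 2 members rose under quantile normalization, with *Fosl2* at 1.12, and 0 after rescaling without mitochondrial genes (limma, *Fosl1* at 0.96, adjusted p = 5.1e-05). An added constant of 0.1 gave 2 related genes with a higher signed response in sorted cells. Quantile normalization gave 2 higher members in SH against UH as well, but with *Junb* at 1.05 called and *Fosb* at 0.97 not. Among the members, directions turned for differences of *Fosb* in SN against UN (0.054 under median-of-ratios scaling, 0.24 under quantile normalization) and, with a library left out, of *Fosb* in SH against SN (−0.33 to 0.38) and SN against UN (−0.50 to 0.21) and *Fosl2* in SN against UN (−0.49 to 0.065), none of them called, and of *Zfp36* in SN against UN (−0.06 to 0.61), which was not tested.

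With each library left out in turn, members called ranged in SH against SN from 0 to 2 higher, in SH against UH from 1 to 3 higher and in UH against UN from 2 to 3 higher and 5 to 5 lower; the counts of 4 lower in SH against SN and 4 higher in SN against UN stayed at 4. Related genes ranged from 14 to 18 higher and 10 to 14 lower in UH against UN, 9 to 12 and 11 to 14 in SH against SN, 15 to 18 and 4 to 8 in SN against UN, 8 to 12 and 8 to 11 in SH against UH, and 1 to 7 and 7 to 15 in the difference of responses, with the most without UN1. With the replicate number as a block the member counts were as given, and 19 related genes rose and 12 fell in UH against UN. The depth of the libraries is unknown, so precision rests on 3 libraries a group.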
